A study of Mus musculus with 6 samples.

Results

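The clustered core histone genes of the mouse were taken as the protein-coding genes of the table whose symbol has the form Hist1h, Hist2h, Hist3h or Hist4h followed by the core histone types H2A, H2B, H3 or H4. The rule found 61 of 54532 genes, namely 18 genes of H2A, 18 of H2B, 12 of H3 and 13 of H4, and left out 3 pseudogenes with names of the same form. RNA was sequenced from 3 libraries labelled aged, from mice 18 months old, and 3 libraries labelled young, from mice 3 months old. The labels give lung as the tissue of all 6 libraries and state no strain, sex, genotype or treatment, nor whether each library came from a mouse of its own. The p-values therefore measure the spread among libraries of a group, which could be technical. Gene coordinates are those of the table, on build mm10 (GRCm38). Values are FPKM, that is fragments scaled by gene length and by library size.

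The lung label could not be matched to the contents of the libraries. The alveolar type 2 marker Sftpc and the leukocyte marker Ptprc were near 0 in every library, and the summed level of 3 endothelial markers was 0.543 to 0.720 FPKM in libraries labelled aged and 0.189 to 0.438 FPKM in libraries labelled young. The 9 epithelial markers summed to 8.33 to 9.02 FPKM in libraries labelled aged and 12.1 to 12.8 FPKM in libraries labelled young, most of it from Hopx. The 4 fibroblast markers summed to 380 to 426 FPKM in libraries labelled aged and 585 to 607 FPKM in libraries labelled young. Leukocyte markers, mostly Cd68, summed to 16.4 to 17.6 FPKM in libraries labelled aged and 6.37 to 8.16 FPKM in libraries labelled young. The 4 haemoglobin genes summed to under 1 FPKM in every library. The 5 germ cell markers, with Prm2 and Tnp1 at 0, summed to 0.754 to 1.23 FPKM in libraries labelled aged and 0.219 to 0.583 FPKM in libraries labelled young. Libraries 1 and 3 labelled young also held kidney transcripts, such as Kap at 116 FPKM in library 1 and 21.9 FPKM in library 3, which had 0 reads in the other 4 libraries. The libraries held 16649061 to 16906850 recovered reads in the group labelled aged and 17266815 to 17456715 in the group labelled young, and 3 reads on a gene of 1 kilobase equal 0.173 to 0.177 FPKM.

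Core histones are the proteins around which DNA is wound. An H3 and H4 tetramer takes up the centre of the nucleosome and H2A and H2B dimers lie on either side. The clustered genes are transcribed mainly in S phase, when new DNA has to be packaged, and are called replication-dependent. Most have no intron, and their mRNAs usually end in a conserved stem-loop in place of a poly(A) tail. The stem-loop is bound by SLBP, which guides processing of the mRNA end, its translation and its decay after S phase. Other histone genes, such as those of H3.3 and H2A.Z, lie outside the clusters, make polyadenylated mRNA and are expressed throughout the cell cycle. Whether RNA with poly(A) tails was selected was not given in the sources used here, and selection would act on these 2 classes of mRNA differently.

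The stem-loop is shown because it is the feature that the clustered genes share. In the GENCODE transcripts for GRCm38, 56 of the 61 genes had a single exon, and the other 5 were Hist1h2bc, Hist1h2be, Hist1h2bp, Hist1h2bq and Hist1h2br. Of 46 genes with at least 50 annotated bases after the coding end, 40 held a stem-loop on the transcribed strand, searched as 16 bases that open with GG, end with CC, have T at bases 6 and 8 and A at base 11, and have arms of 6 complementary bases. The stem-loop began 24 to 61 bases after the coding end. The 6 genes with no match in this window were Hist1h2bc, Hist2h2be, Hist1h2bq, Hist1h2br, Hist1h3g and Hist1h4a. Among other protein-coding genes with at least 100 annotated bases there, 8 of 20174 (0.0397%) held such a match in the same window of 100 bases. The pattern had 6 forms, in which capitals mark the paired arms and lower case marks the loop, and the name in front is a gene that carries the form.
Hist1h3d: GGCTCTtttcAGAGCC
Hist1h4h: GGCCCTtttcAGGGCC
Hist1h3c: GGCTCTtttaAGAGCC
Hist2h4: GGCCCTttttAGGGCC
Hist1h4j: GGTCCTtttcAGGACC
Hist2h2ac: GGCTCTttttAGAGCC
The form of Hist1h3d was found in 23 genes, of H2A, H2B and H3. The form of Hist1h4h was found in 7 genes, all of H4. The remaining forms were found in 5, 2, 2 and 1 genes in the order of the list.

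The promoters of Hist1h3g, Hist1h2bg, Hist1h4k and Hist4h4, genes treated below, are shown as examples. Promoters were read from RefSeq on GRCm38.p6 for 56 of the 61 genes, from 250 bases before to 50 bases after the start. No entry was found for Hist1h2bc, Hist1h3a, Hist1h3f, Hist2h2be and Hist2h4. Capitals mark matches on either strand to the TATA box letters TATAAA, the CCAAT box letters CCAAT, bound by NF-Y, and the octamer ATTTGCAT, bound by the factor Oct-1 (Pou2f1). No match overlapped another in the promoters printed here. Hist1h3g lies at chr13:23535168-23535467 on the plus strand, Hist1h2bg at chr13:23571150-23571449 on the plus strand, Hist1h4k at chr13:21750504-21750803 on the minus strand and Hist4h4 at chr6:136804382-136804681 on the minus strand, for these windows.
Hist1h3g: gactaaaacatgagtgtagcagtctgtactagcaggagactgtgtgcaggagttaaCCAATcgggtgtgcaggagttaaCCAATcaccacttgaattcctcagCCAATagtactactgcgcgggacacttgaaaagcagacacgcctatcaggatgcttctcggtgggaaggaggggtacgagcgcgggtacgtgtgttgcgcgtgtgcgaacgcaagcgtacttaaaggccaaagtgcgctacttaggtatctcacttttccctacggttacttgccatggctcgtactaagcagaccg
Hist1h2bg: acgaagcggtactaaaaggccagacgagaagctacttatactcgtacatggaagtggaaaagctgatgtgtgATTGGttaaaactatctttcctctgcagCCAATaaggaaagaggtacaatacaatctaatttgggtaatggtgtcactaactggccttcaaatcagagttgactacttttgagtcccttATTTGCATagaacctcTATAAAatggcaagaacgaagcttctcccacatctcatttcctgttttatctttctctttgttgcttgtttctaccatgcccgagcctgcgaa
Hist1h4k: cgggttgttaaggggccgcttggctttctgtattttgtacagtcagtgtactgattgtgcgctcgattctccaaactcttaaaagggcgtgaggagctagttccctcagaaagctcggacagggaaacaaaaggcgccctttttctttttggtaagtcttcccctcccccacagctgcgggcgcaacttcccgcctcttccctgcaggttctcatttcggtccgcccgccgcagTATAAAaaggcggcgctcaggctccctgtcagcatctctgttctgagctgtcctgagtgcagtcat
Hist4h4: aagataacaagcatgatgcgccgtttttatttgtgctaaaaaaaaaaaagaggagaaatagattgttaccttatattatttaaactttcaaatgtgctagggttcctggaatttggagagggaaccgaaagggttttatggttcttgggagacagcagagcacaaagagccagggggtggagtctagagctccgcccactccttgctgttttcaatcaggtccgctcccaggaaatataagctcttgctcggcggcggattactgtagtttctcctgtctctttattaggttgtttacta
Letters of the CCAAT box were present in 47 of 56 promoters (83.9%), against 37.4% of 32851 mouse promoters of the same length. They were found in 18 of 18 promoters of H2A, 16 of 16 of H2B and 10 of 10 of H3, but in 3 of 12 of H4. TATAAA was present in 31 of 56 (55.4%), against 13.6% of all promoters. The octamer was found in 14 of 56 (25.0%), against 1.74% of all promoters, namely in 7 of H2A and 7 of H2B. Windows of genes that stand head to head can overlap, so that the same site counts for both. This holds for the octamers of Hist1h2ae and Hist1h2bg, of Hist1h2aa and Hist1h2ba, and of Hist1h2ah and Hist1h2bk. Letters of the CCAAT box are shared as well, for example by Hist1h2ad and Hist1h2bf. The promoters counted are therefore not all independent. A match describes the letters only, and binding was not measured.

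In the libraries labelled aged, clustered core histone transcripts were more abundant than in those labelled young, in genes of all 4 types. Reads were found on 47 of the 61 genes, and 14 genes had none in any library. Of the 47, 42 had a higher mean in libraries labelled aged and 5 a lower one. All 3 libraries labelled aged lay above all 3 labelled young for 31 of the 47 genes, where 23.7% of all 33676 genes with a read did so. They lay below them for 2 genes, Hist2h2be and Hist4h4, where 17.8% of all genes with a read did so. Summed over all members, the level was 139, 128 and 129 FPKM in libraries labelled aged 1 to 3 and 45.6, 43.1 and 43.4 FPKM in libraries labelled young 1 to 3. The groups did not overlap, and the means were 132 ± 6.17 FPKM in libraries labelled aged and 44.0 ± 1.35 FPKM in libraries labelled young (SD, n = 3 each, as for all SDs that follow), a ratio of 3.00. The members together had 2214, 2046 and 2134 reads in libraries labelled aged and 821, 860 and 884 reads in libraries labelled young. Without Hist1h2bc and Hist1h4k, the most abundant members, the sums were 77.0 ± 3.91 FPKM in libraries labelled aged and 21.8 ± 0.987 FPKM in libraries labelled young, a ratio of 3.54.

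The test across all genes, limma on log2(FPKM + 1), took in genes with at least 0.5 FPKM in at least 3 libraries, which left 15197 genes and 25 of the 61 members. At an adjusted p under 0.05, 21 of these members were higher in libraries labelled aged, where 27.7% of all tested genes were, and 1 was lower, where 32.3% were. In either direction that is 22 of 25 members, against 60.0% of all tested genes. The other 3 (Hist1h2ae, Hist1h2bf and Hist3h2a) did not pass. The median log2 fold change was 0.91 over the tested members and -0.03 over all tested genes. The filter favours members that are high in 1 group: 11 of the 25 reached 0.5 FPKM in all 3 libraries labelled young, of which 10 were higher and 1 lower, and 7 reached it in none of them. Without a filter, 21 of 47 members with a read were higher, against 14.3% of 33676 genes, and 1 was lower, against 13.4%. The ratio of mean FPKM ran from 1.85 to 13.2 among the 21 members called higher, with a median of 3.61, and it exceeded 5 in 7 of them. In bulk RNA, more cells that make these transcripts and more of the RNA per cell cannot be told apart.

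**Figure D1:**
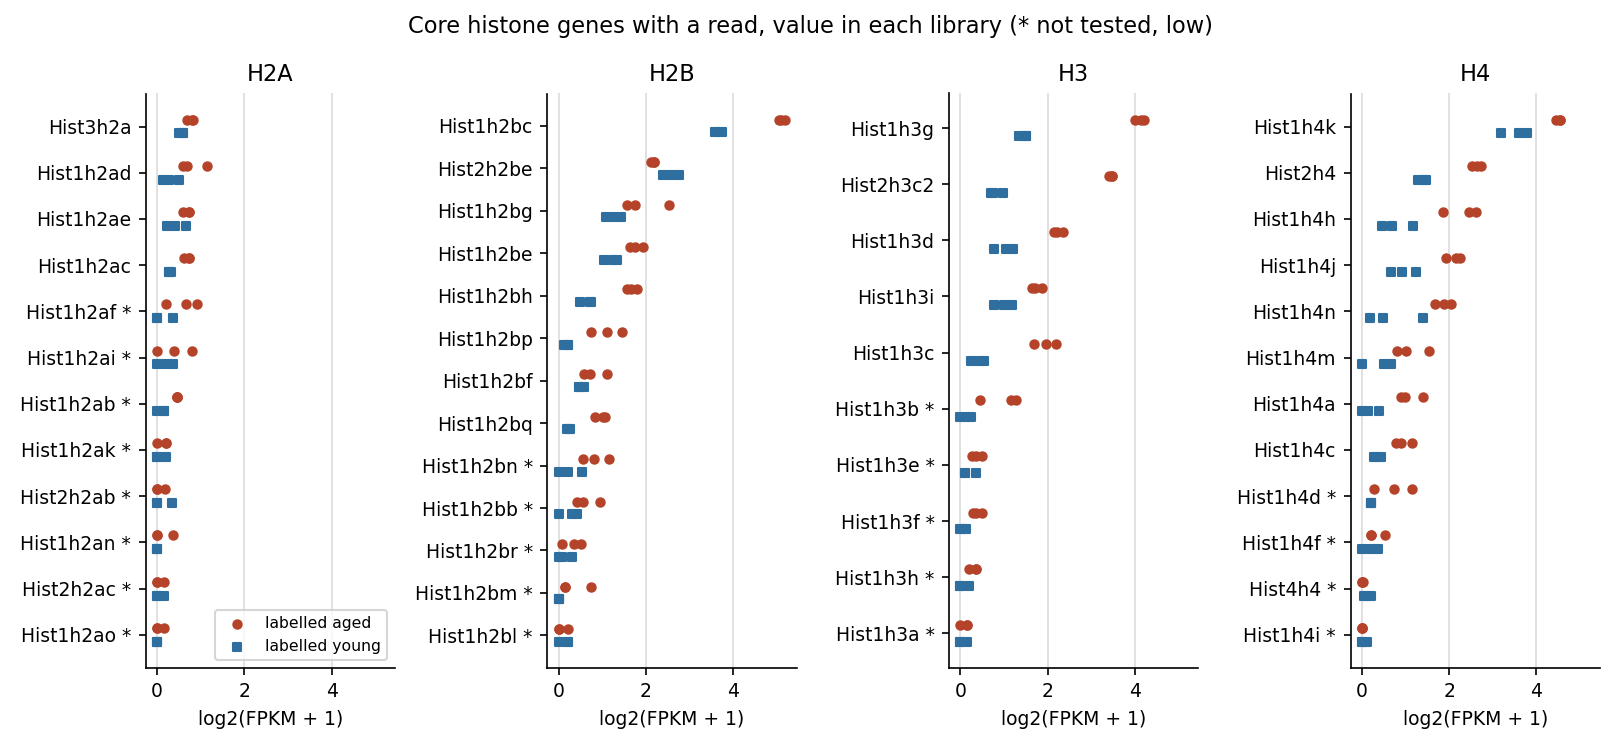
Value of each of the 47 core histone genes with a read in each library, as log2(FPKM + 1), by histone type. Circles are the 3 libraries labelled aged, squares the 3 labelled young, and an asterisk marks genes too low to be tested. Circles lie to the right of squares for most genes, and Hist2h2be among the H2B genes shows the opposite order.

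The summed level was higher in libraries labelled aged for each type, and the ratio was largest for H3. H3 genes summed to 38.7, 35.3 and 37.6 FPKM in libraries labelled aged and 4.98, 5.80 and 4.84 FPKM in libraries labelled young, a ratio of 7.15. H4 genes summed to 43.9, 40.6 and 39.4 FPKM in libraries labelled aged and 18.8, 15.4 and 13.6 FPKM in libraries labelled young, a ratio of 2.59. For H2B the sums were 51.7, 48.5 and 48.2 FPKM in libraries labelled aged and 20.2, 20.2 and 23.0 FPKM in libraries labelled young, a ratio of 2.34. No type overlapped between groups. H2A was low throughout, at 4.28 ± 0.733 FPKM in libraries labelled aged and 1.79 ± 0.177 FPKM in libraries labelled young, a ratio of 2.39. H3 made up 28.1% of the summed level in libraries labelled aged and 11.8% in libraries labelled young, while H2B made up 37.4% in libraries labelled aged and 48.0% in libraries labelled young, and H4 made up 31.2% in libraries labelled aged and 36.2% in libraries labelled young. The difference in ratio between types was not tested, and single genes weighed heavily in it. Hist1h3g and Hist2h3c2, with ratios of 9.36 and 13.2, averaged 16.3 and 9.95 FPKM of the H3 sum of 37.2 FPKM in libraries labelled aged. Hist1h4k, with a ratio of 2.04, averaged 21.8 FPKM of the H4 sum of 41.3 FPKM in the same libraries. Ratios by type without these genes were not computed.

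**Figure D2:**
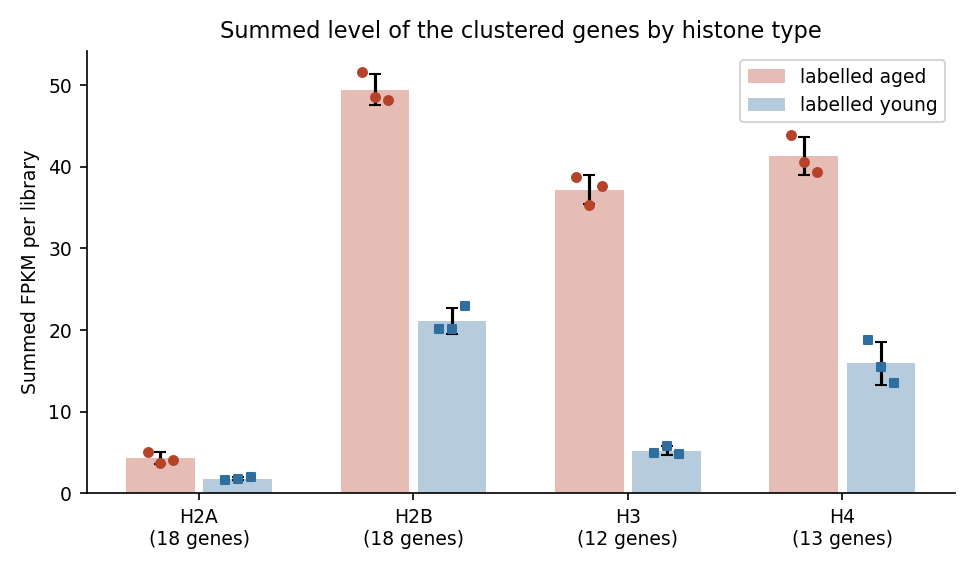
Summed FPKM of the core histone genes of each type, with libraries labelled aged to the left of those labelled young. Bars are group means starting at 0, error bars are SD over 3 libraries and points are single libraries. H3 shows the widest gap, 37.2 FPKM in libraries labelled aged against 5.20 FPKM in libraries labelled young.

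H3 genes, whose product carries many of the tail modifications that mark active and silent chromatin, were higher in all 5 tested cases, and 10 of 10 with a read had a higher mean in libraries labelled aged. Hist1h3g (chr13:23535422-23535951, plus strand) had 16.6, 14.9 and 17.6 FPKM in libraries labelled aged and 1.53, 1.85 and 1.86 FPKM in libraries labelled young. The values were tight within each group and far apart between them, a ratio of 9.36 (log2 fold change 2.66, SE 0.08, limma adjusted p = 2.67e-06). Its promoter, printed above, holds 3 matches to CCAAT. Hist2h3c2 (chr3:96238108-96239127, minus strand), in the smaller cluster on chromosome 3, had 10.1, 9.60 and 10.2 FPKM in libraries labelled aged and 0.683, 0.960 and 0.625 FPKM in libraries labelled young. Its ratio of 13.2 was the largest of the members called (log2 fold change 2.64, SE 0.08, adjusted p = 2.78e-06).

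Hist1h3c (chr13:23744973-23745602, minus strand) had 3.60, 2.90 and 2.22 FPKM in libraries labelled aged and 0.461, 0.183 and 0.368 FPKM in libraries labelled young, with no overlap (ratio 8.62, adjusted p = 0.000171). Hist1h3d (chr13:23575763-23577011, plus strand) had 3.63, 3.40 and 4.10 FPKM in libraries labelled aged and 1.07, 1.29 and 0.696 FPKM in libraries labelled young, also without overlap (ratio 3.64, adjusted p = 0.000193). Hist1h3i (chr13:21782960-21783370, minus strand) differed least of the tested H3 genes. It had 2.69, 2.30 and 2.12 FPKM in libraries labelled aged and 0.706, 1.26 and 0.987 FPKM in libraries labelled young (ratio 2.41, adjusted p = 0.00159). The untested Hist1h3b had 32 reads in libraries labelled aged and 3 in libraries labelled young, a ratio per read total of 11.0 (exact 95% interval, counting error only, 3.45 to 56.3). Hist1h3f had 20 reads in libraries labelled aged and 3 in libraries labelled young, a ratio of 6.89 (interval 2.04 to 36.2).

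H4 genes mostly encode the same protein, the partner of H3 in the tetramer, and 8 of 8 tested were higher. Hist1h4k (chr13:21750194-21750505, minus strand) was the most abundant, with 22.4, 20.8 and 22.2 FPKM in libraries labelled aged and 12.8, 11.1 and 8.17 FPKM in libraries labelled young. Libraries labelled young spread more widely than those labelled aged, yet all lay below them (ratio 2.04, log2 fold change 0.98, SE 0.14, limma adjusted p = 0.000978). In the deposited table Hist1h4k has a length of 312 bases, the coding sequence alone, so that its FPKM stands on 349 reads in libraries labelled aged and 173 in libraries labelled young. Most of the sequence of Hist1h4k is also found in other genes, so its level and ratio need not be its own. Hist2h4 (chr3:96261682-96263311, minus strand) had 5.64, 5.25 and 4.75 FPKM in libraries labelled aged and 1.78, 1.70 and 1.42 FPKM in libraries labelled young. It differed more clearly (ratio 3.19, log2 fold change 1.24, SE 0.08, adjusted p = 3.43e-05).

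Hist1h4h (chr13:23531050-23531519, plus strand) had 4.45, 5.14 and 2.60 FPKM in libraries labelled aged and 1.24, 0.368 and 0.616 FPKM in libraries labelled young. The lowest of the libraries labelled aged was still above the highest labelled young (ratio 5.50, adjusted p = 0.00172), and the ratio was 8.27 without library 1 labelled young. Hist1h4j (chr13:21735064-21735837, plus strand) had 3.76, 3.43 and 2.78 FPKM in libraries labelled aged and 0.900, 0.595 and 1.35 FPKM in libraries labelled young (ratio 3.51, adjusted p = 0.000746). The other 4 called genes, Hist1h4n, Hist1h4m, Hist1h4a and Hist1h4c, had ratios of 3.28 to 8.10 and adjusted p between 0.00349 and 0.0373. The call of Hist1h4m, on 25 reads in libraries labelled aged and 7 in libraries labelled young, was lost without library 1 or 3 labelled aged, or library 1 or 2 labelled young (adjusted p 0.0627 to 0.0984). These ratios turned on single libraries labelled young: without library 1 that of Hist1h4n was 9.95, that of Hist1h4m 2.40 and that of Hist1h4a 5.40, and without library 3 that of Hist1h4m was 5.63 and that of Hist1h4a 21.7. Hist4h4 (chr6:136801553-136804415, minus strand), a single gene away from the clusters, went the other way at a very low level. It had 1 read in libraries labelled aged and 14 in libraries labelled young, a ratio per read total of 0.0738 (exact 95% interval 0.00175 to 0.485), and it was too low to be tested. Its promoter, printed above, held none of the 3 motifs.

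H2B genes, whose product pairs with H2A, were higher in 6 of 8 tested cases and lower in 1. Hist1h2bc (chr13:23684199-23692908, plus strand) was the most abundant of all members, with 35.5, 31.8 and 33.1 FPKM in libraries labelled aged and 11.5, 10.9 and 12.3 FPKM in libraries labelled young. Its groups were well apart (ratio 2.90, log2 fold change 1.46, SE 0.06, limma adjusted p = 5.98e-06). Hist2h2be (chr3:96221119-96223738, plus strand) encodes the H2BE variant known from olfactory neurons of the mouse. It was the member called lower, with 3.51, 3.51 and 3.35 FPKM in libraries labelled aged and 4.21, 4.92 and 5.70 FPKM in libraries labelled young. The groups did not overlap (ratio 0.699, log2 fold change -0.41, SE 0.09, adjusted p = 0.00791).

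Hist1h2be (chr13:23583670-23621124, minus strand) had 2.12, 2.37 and 2.84 FPKM in libraries labelled aged and 1.04, 1.54 and 1.38 FPKM in libraries labelled young (ratio 1.85, log2 fold change 0.57, adjusted p = 0.00462). Its annotated span takes in the linker histone gene Hist1h1e on the same strand. Without both libraries labelled young that held kidney transcripts, its log2 fold change was 0.43 and its adjusted p 0.0767, again with 1 library left in that group. Hist1h2bg (chr13:23571396-23572013, plus strand) had 2.35, 4.77 and 1.98 FPKM in libraries labelled aged and 1.69, 1.12 and 1.41 FPKM in libraries labelled young. Library 2 stood above the other libraries labelled aged, and the call was marginal (ratio 2.16, adjusted p = 0.0464). It was lost without a filter (adjusted p = 0.115), without library 1 labelled aged (0.0597) and without library 1, 2 or 3 labelled young (0.0650, 0.127 and 0.101). Quantile normalization (0.0525), limma without the trend (0.0588) and omission of both kidney-containing libraries (0.154, log2 fold change 0.87 against 0.69) also ended it. Of the remaining called H2B genes, Hist1h2bh had a ratio of 3.79, Hist1h2bq of 5.55 and Hist1h2bp of 8.67, the last on 43 reads in libraries labelled aged and 5 in libraries labelled young. Most of the sequence of Hist1h2bq is also found in other genes. Hist1h2bf did not pass, with 0.631, 1.15 and 0.505 FPKM in libraries labelled aged and 0.378, 0.375 and 0.503 FPKM in libraries labelled young (adjusted p = 0.128). Hist3h2ba, on chromosome 11, was at 0 reads in every library.

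H2A genes gave the fewest reads, and 14 of 18 were too low to be tested. Hist1h2ac (chr13:23681467-23683948, minus strand) had 0.656, 0.665 and 0.539 FPKM in libraries labelled aged and 0.211, 0.255 and 0.210 FPKM in libraries labelled young. All 3 libraries labelled aged were higher (ratio 2.75, log2 fold change 0.40, limma adjusted p = 0.00828). Without both libraries labelled young that held kidney transcripts, the log2 fold change was 0.37 and the adjusted p 0.0947, with 1 library left in that group. Hist1h2ad (chr13:23574381-23574952, plus strand) had 1.22, 0.619 and 0.509 FPKM in libraries labelled aged and 0.203, 0.101 and 0.405 FPKM in libraries labelled young. This marginal call (ratio 3.31, adjusted p = 0.0403) stood on 23 reads in libraries labelled aged and 7 in libraries labelled young, and adjusted p was 0.0873 without a filter. It was also lost without library 1 or 2 labelled aged (0.0944 and 0.0604) and without library 1 or 2 labelled young (0.0935 and 0.115), after quantile normalization (0.0954) and without both libraries with kidney transcripts (0.104). Its ratio was 5.15 without library 3 labelled young. Hist3h2a (chr11:58954685-58956830, plus strand) had 0.732, 0.604 and 0.759 FPKM in libraries labelled aged and 0.514, 0.510 and 0.405 FPKM in libraries labelled young. Its groups did not overlap, but it did not pass (ratio 1.47, adjusted p = 0.0966). After median centring its adjusted p was 0.0393 and in limma without the trend 0.0226. Hist1h2ae (chr13:23570517-23571220, minus strand) had 0.661, 0.670 and 0.496 FPKM in libraries labelled aged and 0.577, 0.164 and 0.329 FPKM in libraries labelled young, with overlap (ratio 1.71, adjusted p = 0.147). Without library 1 labelled young the adjusted p was 0.0478.

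H2A and H2B genes often stand head to head and share the stretch between them. There were 12 such pairs, with starts 175 to 305 bases apart, and both genes had no reads in 3 pairs. In the other 9 pairs the H2B gene had the higher mean level in FPKM in 7 pairs in libraries labelled aged and in 8 pairs in libraries labelled young. The exceptions were Hist1h2ai over Hist1h2bl in both groups and Hist1h2ad over Hist1h2bf, at 0.782 and 0.762 FPKM, in libraries labelled aged. In some pairs, such as Hist1h2ao and Hist1h2bq, most of the sequence of both genes is also found in other genes. A low level there cannot be told apart from reads that had several equal places. Hist1h2bc averaged 33.5 FPKM in libraries labelled aged and 11.5 FPKM in libraries labelled young, and its partner Hist1h2ac, 250 bases away, averaged 0.620 FPKM in libraries labelled aged and 0.225 FPKM in libraries labelled young. On chromosome 3, Hist2h2be averaged 3.46 FPKM in libraries labelled aged and 4.95 FPKM in libraries labelled young and its partner Hist2h2ac 0.0373 FPKM in libraries labelled aged and 0.0371 FPKM in libraries labelled young, on 1 read in each group. The pair of Hist1h2bg and Hist1h2ae, whose stretch between them lies within the promoter printed for Hist1h2bg, averaged 3.03 FPKM for H2B and 0.609 FPKM for H2A in libraries labelled aged, and 1.41 FPKM for H2B and 0.357 FPKM for H2A in libraries labelled young. The members of a pair thus differed in level more than the groups did, in these 3 pairs.

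Members resemble each other closely, and how the authors' counting shared reads among copies was not given in the sources used here. In the GENCODE transcripts, the median member had 57.1% of its windows of 100 bases found in no other gene, and 28 members had under 50%. The 5 members with no window of their own, Hist2h2aa1, Hist2h2aa2, Hist2h2bb, Hist2h3b and Hist2h3c1, were all at 0 reads. All lie on chromosome 3, and a level of 0 there cannot be told apart from reads that had several equal places. The median share of own windows was 65.7% for members with a read and 17.2% for members at 0. Hist2h4 had 100%, but some other members called higher had a low share too. These were Hist1h2bq at 5.2%, Hist1h4m at 11.9%, Hist1h4n at 19.3%, Hist1h3i at 31.4%, Hist1h4k at 35.7%, Hist1h2ad at 36.4% and Hist2h3c2 at 38.4%. Within shared sequence, reads of such a gene and of its copies cannot be told apart, so its ratio need not be its own. The other 9 members at 0 had windows of their own, and 2 of them, Hist1h2aa and Hist1h2ba, encode the testis histones TH2A and TH2B. The share was only 7.8% to 29.2% in Hist1h2ap, Hist1h2ah, Hist1h2ag, Hist1h4b and Hist1h2bk, so the same limit holds for much of their sequence. The annotated stretch behind the stem-loop differed in length among members. With 100 or more annotated bases after it, 16 of 18 genes had a read, and with fewer, 15 of 22 had a read. This difference was not tested. Such stretches belong to transcripts that run past the usual end of a histone mRNA. The span of 23 members also meets another gene of the table, mostly predicted miRNAs on the opposite strand, and the use of strand in counting was likewise not stated. On the same strand, Hist3h2a meets the protein-coding gene Trim17 and Hist1h2ac meets the rRNA gene Gm24991.

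Of the 61 genes, 48 lie on chromosome 13, 10 on chromosome 3, 2 on chromosome 11 and 1 on chromosome 6. On chromosome 13, 19 of 21 tested members were higher and the sum was 113 ± 5.56 FPKM in libraries labelled aged and 36.0 ± 2.04 FPKM in libraries labelled young, a ratio of 3.14. Chromosome 3 had 2 higher and 1 lower of 3 tested, with sums of 18.7 ± 0.582 FPKM in libraries labelled aged and 7.46 ± 0.731 FPKM in libraries labelled young, a ratio of 2.51. Chromosome 13 holds its members in 4 runs. The run from Hist1h2bl to Hist1h2br covers 122 kb with 17 members, 7 of 7 tested were higher, and it had 827 reads in libraries labelled aged and 300 in libraries labelled young. The run from Hist1h4h to Hist1h3a covers 231 kb with 24 members, 12 of 14 tested were higher, and it had 4065 reads in libraries labelled aged and 1344 in libraries labelled young. Between them, 5 members within 9 kb, from Hist1h2ah to Hist1h2bj, had 0 reads in libraries labelled aged and 1 in libraries labelled young. Most of the sequence of Hist1h2ah, Hist1h2ag and Hist1h2bk is also found in other genes. A level of 0 in these cannot be told apart from reads that had several equal places. The last run holds the 2 testis genes and had no reads.

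**Figure D3:**
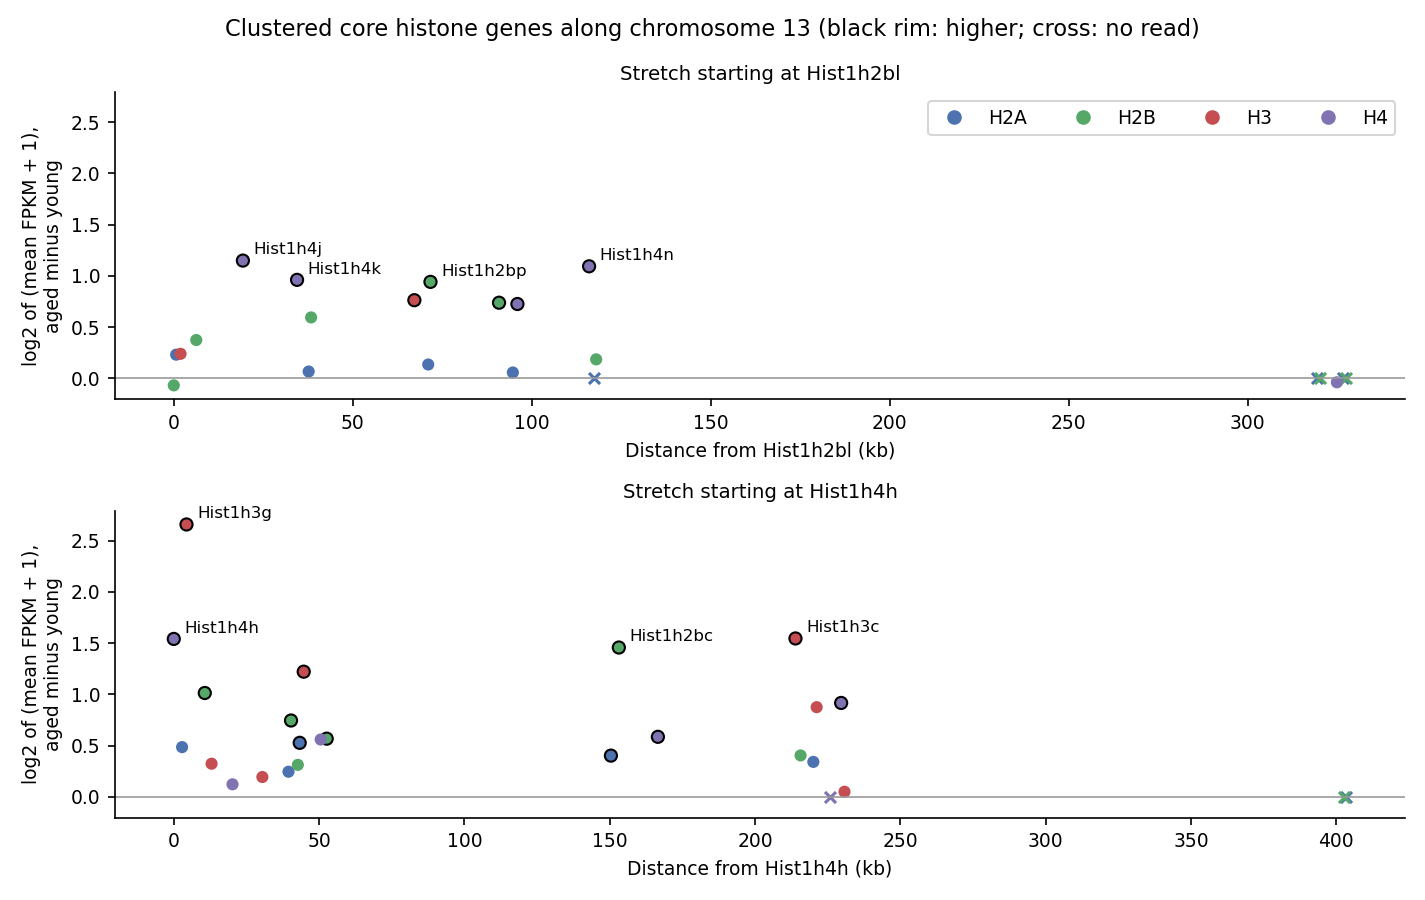
Difference of log2(mean FPKM + 1), libraries labelled aged minus libraries labelled young, for the members on chromosome 13 by distance in kb from the first gene of each stretch. Colours give the histone type, a black rim marks members called higher and a cross marks members with no read. Called members are spread over both long runs, with Hist1h3g and Hist1h2bc among the highest in the lower panel.

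The replication-independent variants, which replace core histones outside S phase, included genes called higher and genes called lower. Of 9 tested, 2 were higher, 5 lower and 2 did not pass, where 27.7% of all tested genes were higher and 32.3% lower, and the median log2 fold change was -0.26. H3f3b, which encodes H3.3, had 120 ± 3.07 FPKM in libraries labelled aged and 255 ± 10.4 FPKM in libraries labelled young (log2 fold change -1.08, limma adjusted p = 5.52e-06). H3f3a, the second gene for the same protein, was lower as well, at 33.6 ± 1.36 FPKM in libraries labelled aged and 43.8 ± 1.99 FPKM in libraries labelled young (adjusted p = 0.000504). Of the H2A.Z genes, H2afz was lower, at 231 ± 2.59 FPKM in libraries labelled aged and 276 ± 12.3 FPKM in libraries labelled young. H2afv was lower too, at 32.6 ± 0.717 FPKM in libraries labelled aged and 50.3 ± 3.36 FPKM in libraries labelled young, as was the macroH2A gene H2afy (log2 fold change -0.76, adjusted p = 1.04e-05). H2afj, encoding H2A.J, was higher, at 47.6 ± 3.16 FPKM in libraries labelled aged and 18.4 ± 1.61 FPKM in libraries labelled young (log2 fold change 1.33, adjusted p = 1.81e-05). Cenpa, the centromeric H3, was also higher, at 33.3 ± 1.17 FPKM in libraries labelled aged and 26.1 ± 0.644 FPKM in libraries labelled young. H2afx and H2afy2 had adjusted p of 0.493 and 0.376. H3f3b alone stood above the sum of all clustered H3 genes in both groups, since that sum was 37.2 FPKM in libraries labelled aged and 5.20 FPKM in libraries labelled young. The 2 levels may not be comparable, because selection of RNA with poly(A) tails was not stated and would act on these mRNAs differently. Reads of the copies Hist2h3b and Hist2h3c1, which have no sequence of their own, may also be missing from the sum.

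Linker histones bind the DNA that enters and leaves the nucleosome. Of 8, 5 were tested, 1 was higher and 4 lower, against 27.7% and 32.3% of all tested genes. H1f0, the linker histone of resting and differentiated cells, averaged 56.1 ± 2.65 FPKM in libraries labelled aged and 528 ± 41.7 FPKM in libraries labelled young (log2 fold change -3.21, limma adjusted p = 1.11e-06). Hist1h1c, Hist1h1d and Hist1h1e, from the same chromosome 13 cluster as the core histone genes, were also lower. Hist1h1c averaged 63.5 ± 3.91 FPKM in libraries labelled aged and 124 ± 8.35 FPKM in libraries labelled young (log2 fold change -0.95), Hist1h1d 0.441 ± 0.0587 FPKM in libraries labelled aged and 1.73 ± 0.327 FPKM in libraries labelled young, and Hist1h1e 0.808 ± 0.073 FPKM in libraries labelled aged and 2.58 ± 0.277 FPKM in libraries labelled young. The linker gene called higher was Hist1h1b, at 3.09 ± 0.478 FPKM in libraries labelled aged and 1.66 ± 0.452 FPKM in libraries labelled young (adjusted p = 0.00765).

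Among genes that act on histone genes or their mRNA, Npat, the coactivator of the clusters, averaged 7.13 ± 0.279 FPKM in libraries labelled aged and 7.06 ± 0.716 FPKM in libraries labelled young (limma adjusted p = 0.853), and Slbp averaged 21.3 ± 0.317 FPKM in libraries labelled aged and 21.2 ± 0.980 FPKM in libraries labelled young (adjusted p = 0.978). Among 11 promoter factors, 2 were higher, 4 lower and 5 did not pass, and among 13 tested genes of histone mRNA end processing and decay, 4 were higher, 5 lower and 4 did not pass. Both counts lay near the 27.7% higher and 32.3% lower of all tested genes and say little about these lists. The S phase activator E2f1 averaged 42.6 ± 0.0695 FPKM in libraries labelled aged and 34.5 ± 1.36 FPKM in libraries labelled young and was higher, while Sp1, at 17.1 ± 1.18 FPKM in libraries labelled aged and 28.8 ± 0.464 FPKM in libraries labelled young, Sp3 and the NF-Y subunit Nfyc were lower. In the second list, Cpsf2, of the cleavage complex, and Ncbp2, of the cap-binding complex, were higher, with log2 fold changes of 0.31 and 0.43. Lsm11, of the U7 particle, and Srrt, which links the cap to processing, were lower, at -0.44 and -0.19.

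Of 24 histone chaperones and partners, 11 were higher, 7 lower and 6 did not pass, where 27.7% of all tested genes were higher and 32.3% lower. Dnajc9, a chaperone of H3 and H4, averaged 46.0 ± 1.10 FPKM in libraries labelled aged and 25.6 ± 2.06 FPKM in libraries labelled young, and Mcm2, a helicase subunit that also binds H3 and H4, averaged 36.6 ± 1.01 FPKM in libraries labelled aged and 24.8 ± 0.256 FPKM in libraries labelled young. Both were higher (log2 fold changes 0.82 and 0.54). Anp32e, which removes H2A.Z, averaged 129 ± 5.25 FPKM in libraries labelled aged and 227 ± 5.92 FPKM in libraries labelled young, and Daxx, which deposits H3.3, averaged 19.7 ± 0.453 FPKM in libraries labelled aged and 27.9 ± 0.799 FPKM in libraries labelled young. Both were lower (log2 fold changes -0.81 and -0.48).

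DNA replication genes of S phase were mostly higher in libraries labelled aged. Of 32 tested, 21 were higher, where 27.7% of all tested genes were, 3 lower and 8 did not pass, with a median log2 fold change of 0.33. Cdt1, which licenses origins, averaged 40.7 ± 2.72 FPKM in libraries labelled aged and 19.5 ± 0.555 FPKM in libraries labelled young (log2 fold change 1.02, limma adjusted p = 1.39e-05). Rrm1, of nucleotide reduction, averaged 54.0 ± 0.479 FPKM in libraries labelled aged and 35.6 ± 0.472 FPKM in libraries labelled young, and the primase Prim1 37.7 ± 0.768 FPKM in libraries labelled aged and 22.9 ± 0.576 FPKM in libraries labelled young. The part of these S phase levels in the core histone differences was not tested, and the same holds for the kidney, fibroblast and leukocyte transcripts given above. Leaving out both libraries labelled young that held kidney transcripts gave a summed core histone ratio of 3.07. In a fit without both, the 1 remaining library labelled young is assumed to vary like the others.

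**Figure D4:**
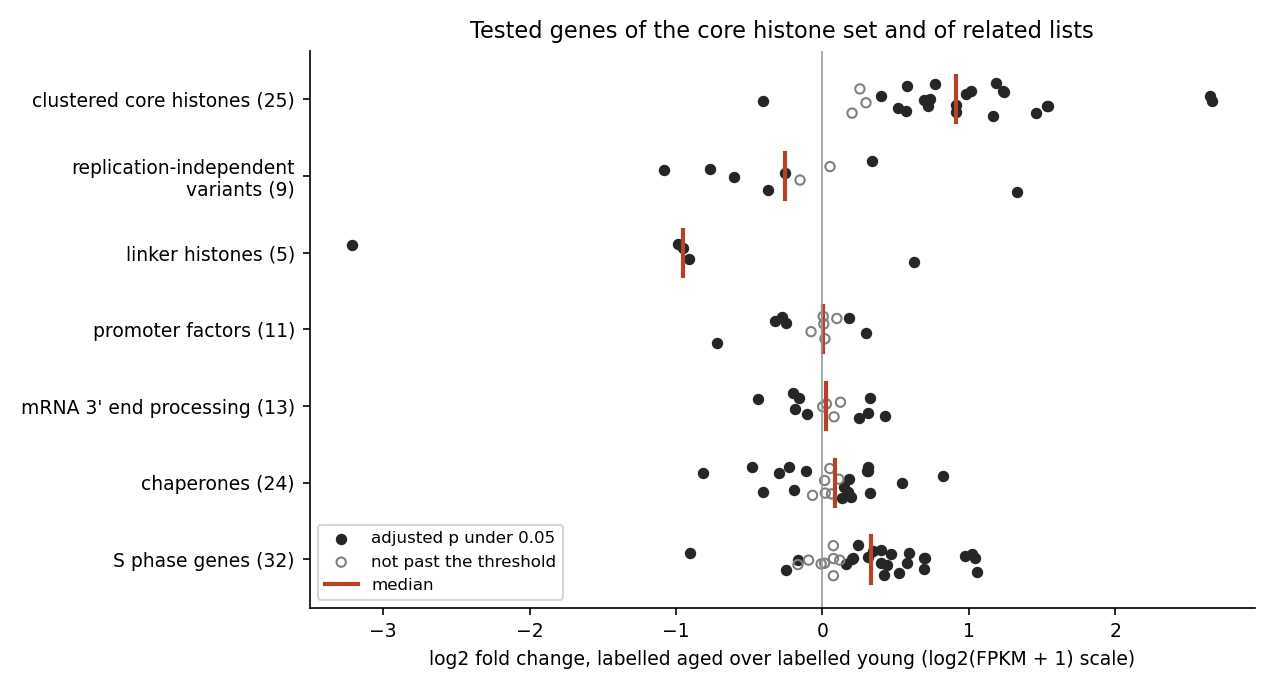
Log2 fold change, libraries labelled aged over libraries labelled young on the log2(FPKM + 1) scale, of each tested gene in the core histone set and 6 related lists, with the number tested in brackets. Filled points have a limma adjusted p under 0.05, open points do not, and the bar is the median. Core histone genes lie mostly right of 0, with a median of 0.91, S phase genes at 0.33 and linker histones at -0.95.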

How the data were processed

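The authors deposited FPKM for 54532 genes and 6 libraries in 1 table. Per the labels' protocols, read pairs were aligned with HISAT2 2.0.5, and per the submitters' processing notes the build was mm10. The counting program, annotation, use of strand and RNA selection were not given in the sources used here. In every library 100% of values above 0, times gene length, were whole multiples of 1 step within a tolerance of 0.01, which gave the reads quoted. Intervals cover counting error only.

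Genes with at least 0.5 FPKM in at least 3 libraries were tested on log2(FPKM + 1) with limma 3.58.1 (R 4.3.3), with a mean-variance trend. The p-values are 2-sided and were adjusted by Benjamini-Hochberg over the 15197 genes tested, and 0.05 was the threshold. Log2 fold changes on that scale understate the change of low genes, and ratios are of mean FPKM. The fit was run on simulated reads with far fewer changed genes than were called here. Its error rate under the conditions of these data was therefore not tested. Members, gene lists and tests were chosen with earlier results of these data known. Members given by library were the 4 most abundant of each type, the 4 largest rises and falls past the threshold, and those outside the Hist1 and Hist2 clusters. Of each related list the 4 tested genes of smallest p were named, with all variants, Slbp and Npat. A gene that this rule takes is not reported here. Members named otherwise were chosen after their values were seen. Sequence work used Python 3.11.15 and figures matplotlib 3.10.9. Alternatives changed the pseudocount, filter, scaling, trend, pairing and libraries used, and 2 were added after seeing the data: voom on recovered reads, and the fit without the kidney-containing libraries.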

Additional observations from a re-analysis of the deposited data

How the results depend on the processing

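Between 15 and 23 core histone genes were called under every alternative run, against 22 as reported, and none of the 17 tested members named by rule changed direction. The count was 21 and 22 at pseudocounts of 0.1 and 0.5, 22 without a filter and 15 at a mean of at least 1 FPKM. It was 23 after median centring, 22 in TPM, 19 after quantile normalization, 22 without the trend and 22 with voom on recovered reads. Equal totals need not be the same genes. Without a filter, 5 genes of H2B, 7 of H3 and 7 of H4 were higher, against 6, 5 and 8 as reported. At a mean of at least 1 FPKM every member that was tested was called. Genes called in all numbered 9115 as reported and 9043 and 9102 at these pseudocounts. They numbered 9330 without a filter, 8392 at that mean and 9014 after median centring. Leaving out 1 library gave 19 to 21 core histone genes, 8155 to 8708 genes in all and a summed ratio of 2.92 to 3.06. Median centring moved the summed ratio to 3.14. Counts for the fit without both kidney-containing libraries are not given singly, because it leaves 1 library labelled young. A planned negative binomial count model was not run, because the table holds FPKM. Of 285 values for these 17 members, 263 kept their call, 19 lost it and 3 gained it. The calls lost were those of Hist1h2ad, Hist1h2bg, Hist1h2ac and Hist1h2be (the cause was not tested).

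Slbp and Npat, neither past the threshold, changed sign. The log2 fold change of Slbp was -0.00603 after quantile normalization, -0.0652 without both kidney libraries and -0.0281 to 0.0349 when 1 library was left out. That of Npat was -0.0205 to 0.0891 when 1 library was left out.

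Replicate numbers did not pair the libraries: deviations of same-numbered libraries had correlations of 0.00562, -0.00793 and 0.0192. With the replicate block, 20 core histone genes, 8441 genes in all and 64 genes of the related lists were called. Under the block the adjusted p of Hist1h2bg was 0.0744 and that of Hist1h2ad 0.0625. Of the 36 untested members, 14 had no read.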
